A study of Canis lupus familiaris with 6 samples.

Results

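The genes described here encode redox selenoenzymes, a set of glutathione peroxidases, thioredoxin reductases and a methionine sulfoxide reductase that carry selenium in their active site. They were chosen by symbol (GPX1, GPX3, GPX4, TXNRD1, TXNRD2, TXNRD3 and MSRB1), and 6 of the 7 symbols matched a row among the 31512 genes in the deposited table. GPX4 was the symbol without a match, and it was not analysed here. Whole blood was drawn on day 30 from Beagle dogs aged 1.5 years, 3 of the control group and 3 of the CPP-Se group, with 1 library per dog. The study fed more dogs than have libraries here, and how these were chosen is not given in the sources used. All dogs ate maintenance food and a daily 30 g snack. The snack of the control group held no supplement, and that of the CPP-Se group held 0.03% CPP-Se, a chelate of selenium with casein phosphopeptide. The series asks how feeding CPP-Se relates to gene expression in blood, and the comparison of these genes asks whether transcripts of enzymes that depend on selenium differed between the groups.

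Selenoenzymes use selenocysteine, an amino acid that is inserted at a UGA codon with the help of a stem-loop in the transcript. Glutathione peroxidases reduce hydrogen peroxide and lipid peroxides with electrons from glutathione, thioredoxin reductases pass electrons from NADPH to thioredoxin, and MSRB1 repairs oxidized methionine in proteins. In blood these systems protect hemoglobin and red cell membranes, and they limit the damage that phagocytes do to themselves with their own oxidants. In animals short of selenium, transcripts of some selenoproteins, GPX1 among them, are degraded more readily than others.

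Expression was measured as FPKM, which divides the fragments of a gene by its length and by the size of the library. Reads recovered from the FPKM totalled 6598173 to 8067034 per dog over all genes. CPP-Se replicate 2 stood apart from the other libraries, because 8 hemoglobin genes held 36.6% of its reads against 48.7% to 55.9% in the other dogs, and the library size behind its FPKM was 1.65 times its reads on genes against 0.882 to 1.05 times in the others. Values are FPKM as deposited unless another scaling is named. For the comparison of the groups, log2(FPKM + 1) was fitted with limma in the 9847 genes whose FPKM averaged 1 or more, and p-values were adjusted over all of these by the Benjamini-Hochberg method. A gene was called if its adjusted p was under 0.05 and its fold change at least 1.5. GPX1, MSRB1, TXNRD1, TXNRD2 and GPX3 passed the filter on low values, and TXNRD3 did not.

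The members spanned levels from 3989 FPKM down to less than 1 FPKM. GPX1 (ENSCAFG00000011495, chromosome 20, 39889174 to 39890260, plus strand in the dog genome of Ensembl release 100) encodes the cytosolic glutathione peroxidase that is abundant in red cells, and its mean of 3989 FPKM over the 6 dogs ranked 10 among all genes in the table. MSRB1 (ENSCAFG00000044942, chromosome 6, 38981721 to 38986459, plus strand) ranked 124 with a mean of 377 FPKM. TXNRD1 (ENSCAFG00000001944, chromosome 10, 33886343 to 34021696, minus strand), the cytosolic thioredoxin reductase, had a mean of 17.3 FPKM and ranked 2087. Below them lay TXNRD2 (ENSCAFG00000014373, chromosome 26, 29381975 to 29430206, plus strand), the mitochondrial thioredoxin reductase, with 4.65 FPKM. GPX3 (ENSCAFG00000031922, chromosome 4, 58200672 to 58209010, minus strand), the glutathione peroxidase secreted into plasma mainly by the kidney, had 1.40 FPKM, and TXNRD3 (ENSCAFG00000003884, chromosome 20, 782653 to 831351, minus strand), known mainly from testis, had 0.561 FPKM. All 6 are annotated as protein coding. GPX1 made up 86.7% to 95.1% of the summed FPKM of the 6 members in each dog.

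Each step in this order except the last had the same direction in all 6 dogs. GPX1 exceeded MSRB1 by a mean of 3.37 on the log2(FPKM + 1) scale (SD 0.61), MSRB1 exceeded TXNRD1 by 4.39 (SD 0.29), TXNRD1 exceeded TXNRD2 by 1.73 (SD 0.66) and TXNRD2 exceeded GPX3 by 1.24 (SD 0.53), in 6 of 6 dogs each time. The adjusted p was 0.0391 for each of these neighbouring pairs (exact sign-flip permutation test, two-sided, 5 pairs), where 0.03125 is the smallest unadjusted p that 6 dogs allow. The pairs were taken from the order of the means of these same 6 dogs, so these p-values describe how constant that order was and are not independent evidence of it. GPX3 exceeded TXNRD3 by a mean of 0.55 (SD 0.50) and in 5 of 6 dogs, and this pair did not pass the same exact test (adjusted p = 0.0625).

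**Figure D1:**
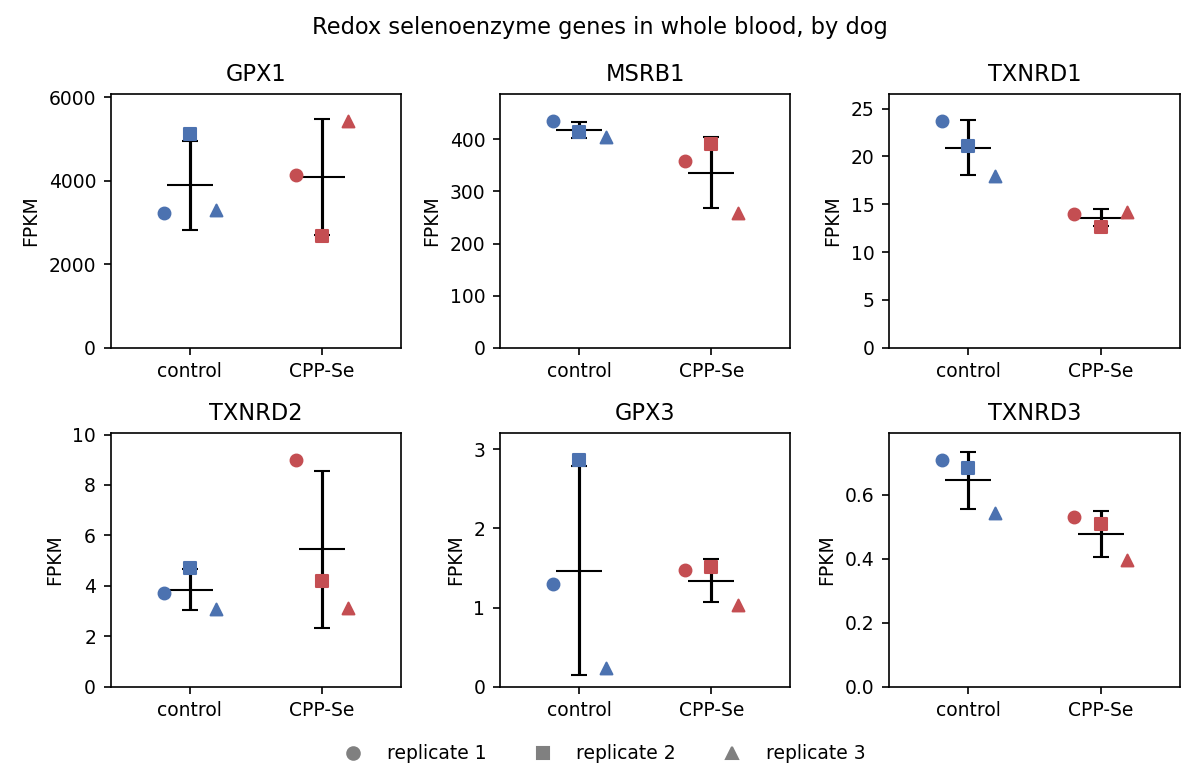
FPKM of each of the 6 members (linear axes from 0) in the 3 control dogs and the 3 CPP-Se dogs; each point is a dog, the marker shape gives the replicate number, and the bars are the mean and SD of 3 dogs. The 3 CPP-Se dogs lie below the 3 control dogs in TXNRD1, MSRB1 and TXNRD3, while the groups overlap in GPX1, TXNRD2 and GPX3.

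None of the 5 members tested was called between the groups (limma; adjusted p between 0.202 and 0.963), and 0.0305% of all genes tested were. Before adjustment, 1 of the 5 had a p under 0.05, namely TXNRD1, against 16.0% of all genes tested. TXNRD1 was lower in the CPP-Se group, as were 9.10% of all genes at that p. Values of control and CPP-Se dogs were fully separate in 2 of the 5, TXNRD1 and MSRB1, against 23.0% of all genes tested. Both were lower in the CPP-Se group, a pattern shown by 12.6% of all genes tested. The median log2 fold change was 0.05 over the 5 members and -0.00 over all genes tested.

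TXNRD1, which recycles cytosolic thioredoxin, had the smallest p of the 5 members tested. Its FPKM in control replicates 1, 2 and 3 were 23.7, 21.1 and 18.0, and in CPP-Se replicates 1, 2 and 3 they were 14.0, 12.6 and 14.2. The lowest control dog thus lay above the highest CPP-Se dog, and the CPP-Se dogs lay close together. The mean was 20.9 ± 2.88 FPKM without and 13.6 ± 0.887 FPKM with CPP-Se (SD, n = 3 for these and all later means), a log2 fold change of -0.58 (SE 0.18, 95% confidence interval -0.99 to -0.17). TXNRD1 stood at rank 576 of the genes tested, and its adjusted p of 0.202 (limma, Benjamini-Hochberg) did not pass. The log2 fold change was -0.43 with a common sum of FPKM, and with each dog left out in turn it lay between -0.68 and -0.49.

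The separation of the groups in TXNRD1 depended on the scaling between dogs. The groups did not overlap under 4 of 6 scalings, among them CPM (recovered reads of a gene scaled to a fixed library total) without the hemoglobin genes, which was 172 to 221 in the control dogs and 131 to 152 with CPP-Se. They overlapped under a common sum of FPKM and in CPM of all reads on genes, where CPP-Se replicate 2 had 96.2 and the lowest control dog 87.1. Whole blood RNA mixes cell types, and for these genes fewer cells of a type and less RNA per cell cannot be told apart. Monocyte markers were also lower: 7 of the 9 tested were so in the CPP-Se group at an unadjusted p under 0.05 (9.10% of all genes tested), 0 were higher (6.87% of all genes tested), and their summed level was 482 to 608 FPKM in the controls against 288 to 365 FPKM in the CPP-Se dogs. CSF1R and CD163 were among the markers measured, and CD14 was not analysed here. The mean log2(FPKM + 1) of the monocyte markers was 4.18, 4.48 and 3.86 in CPP-Se replicates 1, 2 and 3. This is the reverse of the order of TXNRD1 in those dogs. Neutrophil markers had means of 6.53, 6.38 and 6.13 in the controls and 6.17, 5.88 and 6.18 with CPP-Se. Within each group these ran in the order of TXNRD1. The part of either cell type in the TXNRD1 result was not tested.

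TXNRD2, which recycles thioredoxin in mitochondria, showed no such separation of the groups. Its FPKM values were 3.73, 4.72 and 3.10 in the controls against 9.0, 4.20 and 3.14 with CPP-Se. Only CPP-Se replicate 1 lay outside the range of the control dogs, and the groups overlapped. The log2 fold change was 0.32 (SE 0.33, 95% confidence interval -0.45 to 1.09, adjusted p = 0.680), and without CPP-Se replicate 1 it was -0.05. The ratio of TXNRD1 to TXNRD2 in FPKM was 6.37, 4.47 and 5.80 in the controls against 1.56, 2.99 and 4.53 with CPP-Se. These ratios overlapped between the groups through CPP-Se replicate 3 alone.

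TXNRD3, which joins a glutaredoxin domain to a thioredoxin reductase, was near the limit of detection. It had 10, 9 and 9 recovered reads in the controls against 7, 14 and 5 in the CPP-Se dogs, and its FPKM were 0.709, 0.682 and 0.542 against 0.529, 0.508 and 0.395. The groups did not overlap in FPKM, but the gap between 0.542 and 0.529 is far less than 1 read is worth. They overlapped under 4 of the 6 scalings. With no filter on low values its log2 fold change was -0.15 (SE 0.13, limma adjusted p = 0.690).

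GPX1 did not differ between the groups beyond the spread of the dogs. Its FPKM values were 3237, 5126 and 3301 in the controls against 4149, 2679.8 and 5439.9 with CPP-Se. As deposited, the lowest and the highest dog were both in the CPP-Se group. CPP-Se replicate 3 was the highest under all 6 scalings, but the lowest was CPP-Se replicate 2 under 2 of them and control replicate 1 under the other 4 (under a common sum of FPKM, 3168 in control replicate 1 and 4111 in CPP-Se replicate 2). The groups overlapped under each of the 6. The means were 3888 ± 1073 and 4089 ± 1381 FPKM, a log2 fold change of 0.05 (SE 0.37, adjusted p = 0.963), which was 0.32 without CPP-Se replicate 2. The 95% confidence interval, -0.82 to 0.91, spans folds from 0.568 to 1.88, so smaller changes in either direction were not detectable with 3 dogs per group. Its sign turned in 4 of 19 alternative settings. GPX1 had 18184 to 29412 reads per dog, for which counting alone would give an SD of 0.0094 on the log2 scale. The SD between dogs of a group was 0.45 as deposited and 0.23 with a common sum of FPKM.

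As deposited, red cell markers and GPX1 were highest in the same 3 dogs. The mean log2(FPKM + 1) of 17 red cell markers was highest in CPP-Se replicate 3 (5.95), control replicate 2 (5.52) and CPP-Se replicate 1 (5.32), the same dogs that were highest in GPX1 and in the same order. In the other 3 dogs the order was reversed: the markers were at 4.93, 4.89 and 4.56 in CPP-Se replicate 2, control replicate 1 and control replicate 3, where GPX1 was at 2679.8, 3237 and 3301 FPKM. Summed over 19 red cell genes, the markers ranged from 1919 to 5988 FPKM in the controls against 3313 to 5607 FPKM in the CPP-Se dogs, with control replicate 2 above CPP-Se replicate 3, so the groups overlapped. Under a common sum of FPKM, GPX1 was higher in CPP-Se replicate 2 (4111) than in CPP-Se replicate 1 (3878). The markers were not put on that scale here. The part of red cell RNA in the level of GPX1 was not tested.

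**Figure D2:**
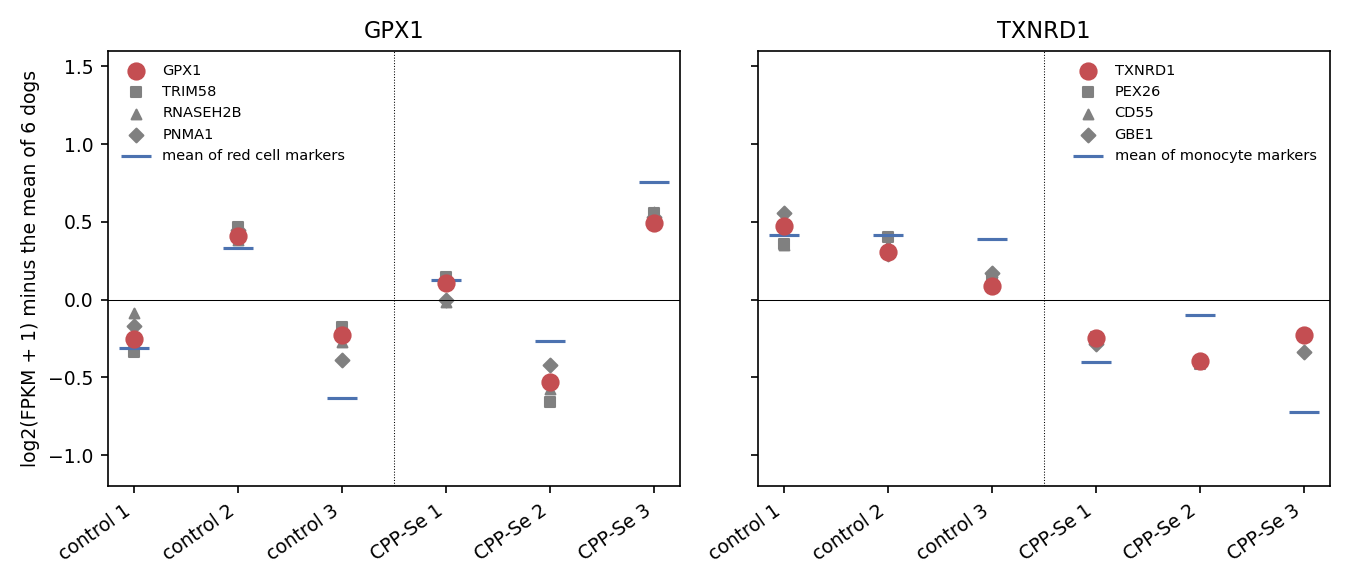
Centred log2(FPKM + 1), that is, the value of each dog minus the mean of the 6 dogs (linear axis), for GPX1 (left) and TXNRD1 (right) as large circles, the 3 genes most like each as grey symbols, and the mean of 17 red cell or 9 monocyte markers as bars. GPX1 and the red cell markers lie above 0 in control replicate 2 and in CPP-Se replicates 1 and 3, and TXNRD1 and the monocyte markers lie above 0 in the 3 control dogs. Within the CPP-Se group, TXNRD1 and the monocyte markers run in opposite order.

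GPX3, the plasma enzyme, rested on few reads. It had 14, 29 and 3 recovered reads in the controls against 15, 32 and 10 in the CPP-Se dogs, which gave 1.29, 2.87 and 0.236 FPKM against 1.48, 1.51 and 1.03 FPKM. The control dogs held both the highest and the lowest value, and the CPP-Se dogs lay between them. The log2 fold change was 0.07 (SE 0.41, adjusted p = 0.954), although the mean FPKM was lower in the CPP-Se group (1.34 ± 0.269 against 1.47 ± 1.33). Leaving out control replicate 3, the dog with 3 reads, gave -0.35, and leaving out control replicate 2, the highest, gave 0.47. With a pseudocount of 0.1 it was 0.35, and with limma-voom on the recovered reads 0.59. Of the kidney and liver markers, UMOD, AQP2 and NPHS1 were at 0 in all 6 dogs and SLC34A1, APOA1 and TTR were under the filter of 1 FPKM. SERPINA1, which blood leukocytes also express, passed it and was lower with CPP-Se (log2 fold change -0.85, adjusted p = 0.171, limma).

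MSRB1, which reduces the R form of methionine sulfoxide, was not called between the groups, and its CPP-Se dogs covered a wider range than its control dogs. Its FPKM values were 436, 413 and 405 in the controls against 358, 391 and 260 with CPP-Se. The SD on the log2 scale was 0.05 in the control group and 0.31 in the CPP-Se group, where replicate 3 lay far below the rest. The means were 418 ± 15.8 and 336 ± 68.6 FPKM, a log2 fold change of -0.33 (SE 0.23, 95% confidence interval -0.86 to 0.20, adjusted p = 0.523). Without CPP-Se replicate 3 it was -0.16. The groups did not overlap in FPKM as deposited, but they overlapped under 4 of 6 scalings, and in CPM without the hemoglobin genes CPP-Se replicate 2 had 1228 and stood above the control dogs (990 to 1058). Of 9 neutrophil markers tested, 4 were lower with CPP-Se at an unadjusted p under 0.05 (9.10% of all genes tested). At that p, 1 was higher (6.87% of all genes tested). They summed to 2220 to 2969 FPKM in the controls against 1722 to 2231 FPKM in the CPP-Se dogs, with overlap. Among the CPP-Se dogs, their mean log2(FPKM + 1) was highest in replicate 3 (6.18), where MSRB1 was lowest. Monocyte markers had means of 4.9963, 4.9957 and 4.9682 in the controls and 4.18, 4.48 and 3.86 with CPP-Se. This is the order of MSRB1 over the 6 dogs. The part of either cell type in the MSRB1 result was not tested. RPL3L, whose annotated span overlaps that of MSRB1, was at 0 in all dogs.

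**Figure D3:**
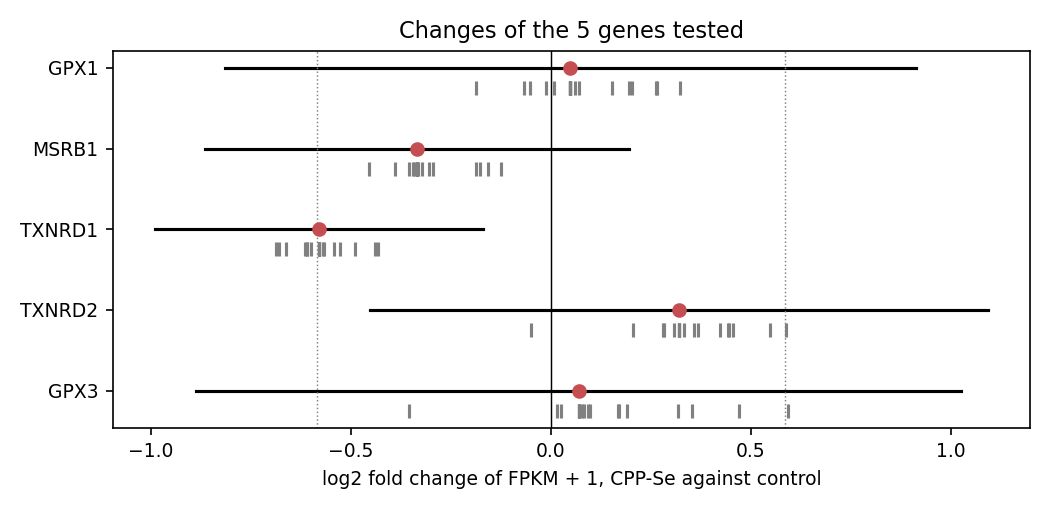
Log2 fold change of FPKM + 1, CPP-Se against control (linear axis), of the 5 members tested: circles are the estimates from limma, lines their 95% confidence intervals, grey ticks the values under the alternative settings, and dotted lines a fold of 1.5 in either direction. The interval lies below 0 in TXNRD1 (-0.99 to -0.17), and it spans 0 in the other 4 genes.

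The members differed in how much they varied between dogs of a group. As deposited, the within-group SD on the log2 scale was 0.15 for TXNRD1, 0.22 for MSRB1, 0.45 for GPX1, 0.50 for TXNRD2 and 0.60 for GPX3, against a median of 0.31 over all genes tested. The order depended on the scaling: with a common sum of FPKM, the SD was 0.23 for GPX1, 0.27 for TXNRD1, 0.51 for MSRB1, 0.51 for TXNRD2 and 0.62 for GPX3. As deposited but without CPP-Se replicate 2, the SD was 0.16 for TXNRD1, 0.19 for MSRB1 and 0.35 for GPX1, in the same order as with that dog. Leaving out some other dogs changed the order. Without CPP-Se replicate 3 the SD was 0.068 for MSRB1 and 0.17 for TXNRD1. Without CPP-Se replicate 1 it was 0.24 for TXNRD2 and 0.52 for GPX1. Without control replicate 3 it was 0.34 for GPX3 and 0.50 for GPX1. Of all genes tested, 10.9% varied less than TXNRD1 and 87.6% less than GPX3 as deposited. The spread that counting alone would give was 0.057 for TXNRD1 (402 to 776 reads per dog), 0.026 for MSRB1 (1912 to 6285 reads), 0.16 for TXNRD2 (37 to 111 reads) and 0.27 for GPX3 (3 to 32 reads). The spread of each of the 5 as deposited was at least 2.17 times that of counting. The spread from counting treats reads as independent molecules and covers counting error only.

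For each member tested, the 3 named genes with the most similar pattern over the 6 dogs were taken from 8130 candidates, by the root mean square difference of centred log2(FPKM + 1). GPX1 was most like TRIM58 (0.08 on the log2 scale), a ubiquitin ligase of maturing red cells, followed by RNASEH2B (0.09) and PNMA1 (0.10). TRIM58 had 11.5, 20.9 and 13.0 FPKM in the controls against 16.5, 8.99 and 22.2 FPKM in the CPP-Se dogs, and thus had its lowest and highest value in the same dogs as GPX1. TXNRD1 was most like PEX26 (0.06), a peroxisome import factor, CD55 (0.06), which protects cells from complement, and GBE1 (0.07), the glycogen branching enzyme. All 3 had groups without overlap and an adjusted p of 0.179 to 0.189 (limma with Benjamini-Hochberg adjustment). MSRB1 was most like ACLY (0.04), RP2 (0.05) and GPS2 (0.06), TXNRD2 most like RHBDD3 (0.05), SLC26A11 (0.09) and CHMP4A (0.09), and GPX3 most like JPT1 (0.09), C10H2orf49 (0.11) and CXHXorf38 (0.12). With 6 dogs and so many candidates, these neighbours describe the libraries and no more.

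The enzymes closest to the members in reaction were read from lists of related genes. Of the other glutathione peroxidases, GPX5, GPX6, GPX8 and a row without a symbol described as glutathione peroxidase 8 (ENSCAFG00000009200) were at 0 in all dogs and GPX2 had 0.174 FPKM in CPP-Se replicate 1 alone, so 0 of the 4 named genes passed the filter. A row without a symbol that the file describes as glutathione peroxidase 7 (ENSCAFG00000003730) had 0.541, 0.193 and 1.99 FPKM in the controls against 1.15, 0.0922 and 1.21 FPKM in the CPP-Se dogs, and its mean was also under the filter. GPX1 and GPX3 were therefore the only rows of that family analysed here with a mean of at least 1 FPKM. MSRA, which repairs the S form of methionine sulfoxide, had 21.4 FPKM over all dogs and a log2 fold change of -0.43 (adjusted p = 0.531). MSRB2, the mitochondrial counterpart of MSRB1, had 3.32 FPKM and a log2 fold change of 0.66 (adjusted p = 0.442), and both overlapped between the groups. MSRB3 averaged 0.599 FPKM and was under the filter.

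Among the substrates and partners of the thioredoxin reductases, 0 of 9 genes were called. The median log2 fold change was -0.45, or -0.29 under a common sum of FPKM. The estimate was below 0 in 8 of the 9 (50.4% of all genes tested), and in 6 of the 9 under a common sum of FPKM, where PRDX3 and PRDX4 turned positive. TXNIP, an inhibitor that binds thioredoxin, was the single gene of the list with an unadjusted p under 0.05 and lower expression (9.10% of all genes tested), and it is named here after its values were seen. It had 222, 194 and 253 FPKM in the controls against 155, 142 and 125 FPKM in the CPP-Se dogs. Its groups did not overlap, and its adjusted p of 0.202 was that of TXNRD1. TXN2, the mitochondrial thioredoxin that TXNRD2 reduces, had the highest level (251 FPKM) and a log2 fold change of -0.49 (adjusted p = 0.552). PRDX1, a cytosolic peroxiredoxin, had the highest log2 fold change (0.52, adjusted p = 0.384), TXNL1 had the most negative (-0.83, adjusted p = 0.378), and PRDX3, the mitochondrial peroxiredoxin, had -0.07. TXN, the cytosolic thioredoxin that TXNRD1 reduces, was not analysed here. Under a common sum of FPKM the median of all genes tested was 0.13 higher than as deposited, and relative to that median TXNRD1 had a log2 fold change of -0.56 and MSRB1 of -0.30.

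The genes that supply glutathione and NADPH showed no call either (0 of 11, median log2 fold change -0.10, or 0.04 under a common sum of FPKM). PGD, an NADPH-producing enzyme at the highest level in the list (384 FPKM), had 483, 417 and 473 FPKM in the controls against 317, 331 and 284 FPKM in the CPP-Se dogs (log2 fold change -0.56, adjusted p = 0.253, groups without overlap). GSR, which recycles glutathione for the peroxidases, had a log2 fold change of -0.09 (adjusted p = 0.859) that turned positive under a common sum of FPKM. GLRX5 had the most negative log2 fold change (-0.95, adjusted p = 0.410) and GLRX2 the highest (0.24, adjusted p = 0.816), and the groups overlapped in both.

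**Figure D4:**
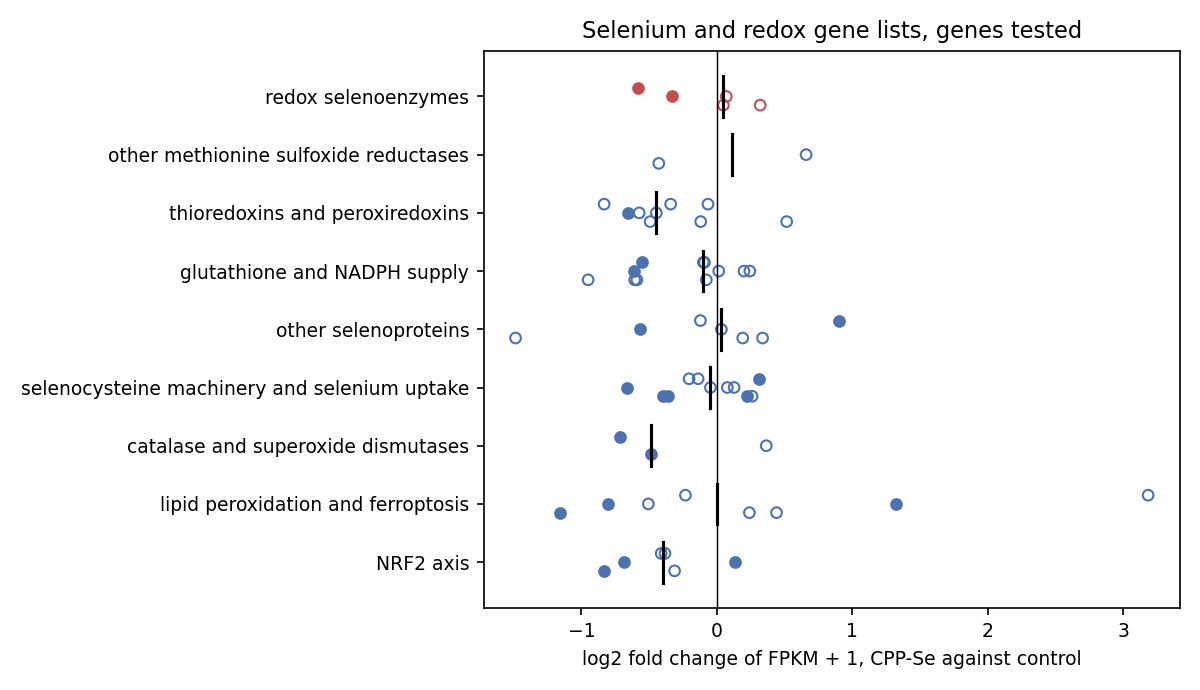
Log2 fold change of FPKM + 1, CPP-Se against control (linear axis), of every gene tested in the redox selenoenzymes (top) and 8 lists of related genes; filled circles are genes without overlap of the groups, open circles genes with overlap, and black bars the median of each list. The medians run from -0.49 (catalase and superoxide dismutases) to 0.11 (other methionine sulfoxide reductases).

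Other selenium genes were called in 0 of 7 cases (other selenoproteins, median log2 fold change 0.03) and 0 of 11 cases (selenocysteine machinery and selenium uptake, median -0.05). Under a common sum of FPKM these medians were 0.16 and 0.03. SELENOW, a small selenoprotein with a redox motif, had the highest level in the first list (219 FPKM) and a log2 fold change of 0.19 (adjusted p = 0.807). SELENOO had the highest log2 fold change of that list (0.90, adjusted p = 0.213, groups without overlap), and SELENOP, which carries selenium in plasma, had the most negative (-1.49, adjusted p = 0.341). SELENOP had 15.2, 21.7 and 51.0 FPKM in the controls against 4.23, 26.9 and 4.95 FPKM in the CPP-Se dogs, with overlap. In the machinery list, EEFSEC, the elongation factor for selenocysteine, had a log2 fold change of 0.31 (adjusted p = 0.451), SECISBP2L had -0.67 (adjusted p = 0.181), and NCL, the most abundant, had 0.13.

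Enzymes and regulators that act beside the members were also tested. Catalase and the superoxide dismutases gave 0 calls in 3 genes (median log2 fold change -0.49): SOD2 had the highest level (260 FPKM) and the most negative log2 fold change (-0.72, adjusted p = 0.25), and SOD1 the highest (0.36, adjusted p = 0.516). Genes of lipid peroxidation and ferroptosis gave 0 calls in 8 (median 0.00), with ALOX15 at 3.18 (adjusted p = 0.270, groups with overlap), ACSL4, which supplies oxidizable phospholipids, at -1.16 (adjusted p = 0.184) and NCOA4 at the highest level (65.3 FPKM). The NRF2 axis gave 0 calls in 6 (median -0.40). Under a common sum of FPKM the medians were -0.34 (catalase and superoxide dismutases), 0.13 (lipid peroxidation and ferroptosis) and -0.25 (NRF2 axis). NFE2L2, which encodes NRF2, a transcription factor that drives TXNRD1, had 24.8, 25.5 and 23.6 FPKM in the controls against 9.60, 17.4 and 14.2 FPKM in the CPP-Se dogs (log2 fold change -0.83, adjusted p = 0.183). KEAP1, its inhibitor, had 0.14 (adjusted p = 0.727), and BACH1 had the highest level (26.2 FPKM) of the 6. Over all 9 lists, 12 of 57 genes tested had an unadjusted p under 0.05 with lower expression in the CPP-Se group (9.10% of all genes tested) and 3 with higher expression (6.87%).

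Markers of the other blood cells were measured in the same fit, and 0 were called. At an unadjusted p under 0.05, 6 of 12 T cell, 5 of 9 B cell and 5 of 10 NK and cytotoxic cell markers were higher with CPP-Se (6.87% of all genes tested), and 1, 0 and 0 were lower (9.10%). Of the T cell markers, 11 of 12 had an estimate above 0, and their mean log2(FPKM + 1) was 3.88 to 4.49 in the controls against 4.58 to 4.99 with CPP-Se. By contrast, their sum was lower with CPP-Se (1055 to 1368 FPKM in the controls against 919.7 to 1029.6 FPKM). A sum is led by the most abundant genes, and 1 of the 12 markers had an estimate below 0. The sum therefore need not follow the other 11 markers. The sums were 282 to 404 against 430 to 471 FPKM for B cell markers and 45.5 to 82.7 against 95.6 to 149 FPKM for NK and cytotoxic cell markers, both without overlap. Platelet markers were higher in 0 and lower in 1 of 8, those of eosinophils, basophils and mast cells were higher in 2 and lower in 0 of 5, and those of red cells were higher in 4 and lower in 1 of 17.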

How the data were processed

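Whole blood RNA of 3 control and 3 CPP-Se dogs was sequenced as poly-A libraries (NEBNext Ultra, paired ends). According to the submitters' processing notes and the study's methods, reads were filtered with fastp 0.19.7, aligned with HISAT2 2.0.5 (dog genome, Ensembl release 100), assembled with StringTie and counted with featureCounts 1.5.0-p3. The deposited values are FPKM that the authors computed from gene length and reads; the library size behind them and the use of strand are not given in the sources used here. FPKM times gene length was a whole multiple of a step in 100% of the values checked (tolerance 0.01 reads), so reads were recovered; they total 6598173 to 8067034 per dog, and precision is set by these and by 3 dogs per group.

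Groups and replicate numbers came from the labels, and feed, dose and age from the study's methods. As the table holds FPKM and not counts, log2(FPKM + 1) was tested in the 9847 genes averaging 1 FPKM or more (limma 3.58.1 in R 4.3.3, lmFit and eBayes with a trend, two-sided, Benjamini-Hochberg adjustment). Within-group SDs are residual SDs. Neighbours in the order of levels were compared by an exact sign-flip permutation test. Scripts were tested on simulated data. The p-values of limma set the difference of the groups against the spread between dogs of a group, moderated over genes. Those of the sign-flip test concern differences between neighbouring members within each dog. Tables were made in Python 3.11.15 with pandas 2.3.3 and figures with matplotlib 3.10.9.

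The members and lists were chosen with earlier results of these data known. Named genes were the members, their direct partners (1 of them is not reported here), the largest rise, largest fall and highest level in each list, the 3 genes most like each member, and rows described as the same enzymes or overlapping a member; TXNIP, PRDX4 and the markers named singly were added after their values were seen. Alternatives were other pseudocounts, filters, scalings and fits, a replicate block and each dog left out.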

Additional observations from a re-analysis of the deposited data

How the results depend on the processing

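In 19 alternative settings 0 members were called (limma, lowest adjusted p = 0.0775 for TXNRD1 with limma-voom and sample quality weights), and 87 of 93 log2 fold changes of the 5 members tested kept their direction. TXNRD1 and MSRB1 kept theirs in all 19, at -0.69 to -0.43 and -0.45 to -0.13. The unadjusted p of TXNRD1 was under 0.05 in 16 of the 19; it was 0.220 with a common sum of FPKM, 0.0917 with a common sum without the hemoglobin genes and 0.0564 without control replicate 1. GPX1 turned to -0.014 with array weights. With each dog left out, GPX1 ranged from -0.19 to 0.32, GPX3 from -0.35 to 0.47 and TXNRD2 from -0.050 to 0.59. The cause was not tested. The order of the 6 levels was the same in the 9 settings tried. TXNRD3 moved to -0.37 with a pseudocount of 0.1. Over 6 scalings (chosen after seeing the data) the within-group SD ranged from 0.23 to 0.45 for GPX1, 0.15 to 0.31 for TXNRD1 and 0.22 to 0.54 for MSRB1. For GPX3 it ranged from 0.60 to 0.93 and for TXNRD2 from 0.49 to 0.56. As deposited, the SD fell to 0.068 for MSRB1 without CPP-Se replicate 3. It fell to 0.24 for TXNRD2 without CPP-Se replicate 1 and to 0.34 for GPX3 without control replicate 3.

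The number of genes called over the whole table was 3 and moved to 0 with a pseudocount of 0.1 (1537 at an unadjusted p under 0.05) or no filter (1857), 1 with a minimum of 5 FPKM, with the replicate block, with limma-voom or (chosen after seeing the data) with at least 10 mean reads, 12 with a common sum of FPKM (8 higher and 4 lower with CPP-Se, where the 3 were all lower) and 156 with limma-voom and sample quality weights (52 higher and 104 lower, chosen after seeing the data). With each dog left out it ranged from 0 to 14 (14 without CPP-Se replicate 2), and the pathway genes called ranged from 0 to 1 (ALOX15, without CPP-Se replicate 2). Same-numbered dogs did not deviate together (highest correlation of deviations 0.016). With so few dogs per group, this cannot exclude that dogs of the same number were handled together. Under the replicate block the adjusted p of TXNRD1 was 0.323 (limma). GPX3 and TXNRD3 rest on as few as 3 and 5 reads in a dog.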

Other observations

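A row without a symbol that the file describes as peroxiredoxin 5, an enzyme that thioredoxin reduces (ENSCAFG00000045013, chromosome 18, 52750976 to 52754044), had 342, 273 and 187 FPKM in the controls against 402, 219 and 143 FPKM in the CPP-Se dogs. It is named here with its values known, and its level was of the order of that of MSRB1, with overlap between the groups.

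The share of GPX1 among all reads on genes was 0.276%, 0.394% and 0.285% in the controls against 0.322%, 0.365% and 0.395% with CPP-Se. On this scale CPP-Se replicate 2, the lowest dog in FPKM, was the third highest of the 6. The ratio of GPX1 to MSRB1 in FPKM ran from 6.85 in CPP-Se replicate 2 to 21.0 in CPP-Se replicate 3, with the control dogs at 7.43, 12.4 and 8.14.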
